A study of Drosophila melanogaster with 2 samples.

Results

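Msp300, sls, Tm1, Tm2, Mhc, Act57B, Act87E, bt and Mlc2 encode structural proteins of Drosophila muscle. These 9 genes were taken by name from the 18277 annotated genes, 13968 of which code for protein. Ssrp, a subunit of the histone chaperone FACT, was mapped over them by ChIP-seq, in which an antibody pulls down the DNA that a protein sits on. The chromatin came from whole Drosophila melanogaster embryos of mixed sex, aged 0 to 16 h, of 1 transgenic line whose Ssrp carries GFP at its C-terminus, and an anti-GFP antibody was used. There is 1 group with 2 biological replicates and no second condition. Control libraries were not analysed here, so whether each peak depends on the tagged protein was not tested. The embryos were not separated by tissue. Fewer cells with Ssrp at a gene and less Ssrp per cell cannot be told apart, nor can muscle be told from other cells.

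The authors deposited a list of 30000 peaks for each replicate, a list of 30000 peaks from both replicates together, called pooled below, and a shorter list that passed a limit on the irreproducible discovery rate (IDR), which asks whether a peak ranks alike in both replicates. The IDR peaks are the strongest of the pooled list. Each peak has a summit, its highest point, and a signal, the authors' own value. Signals of different lists are not on 1 scale, so peaks were ranked within each list. A peak was counted for a gene when its summit lay in the gene or within 2 kb of it. Pooled peaks outside the IDR list are called weaker peaks here. The lowest −log10 q was 0.352 among the pooled peaks and 2.62 among the IDR peaks, so a weaker peak may be no site of binding. With peak lists of 1 group only, counts are set beside the same share of all protein-coding genes, with no test.

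A muscle sarcomere is built of thin filaments of actin wound with tropomyosin and of thick filaments of myosin. Thin filaments are anchored in the Z-disc, and giant elastic proteins of the titin family tie the Z-disc to the thick filaments. Many of these genes have several start sites and splice forms that differ between muscles and stages. FACT loosens and rebuilds nucleosomes ahead of and behind RNA polymerase, and is found along transcribed genes in many species.

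The giant gene Msp300 carried the strongest peaks of the group, and their sequences are shown for that reason. Msp300 encodes a nesprin-type protein that ties nuclei to the cytoskeleton. Below are the summit base and 50 bases on either side of it (dm6, plus strand, which is the strand of the gene), 5′ to 3′, from the reference genome. The intronic window is chr2L:5145704-5145804 and the promoter window is chr2L:5108101-5108201. The capitals mark the longest run of letters that both windows hold, which is 11 bases long.
Msp300 intronic summit: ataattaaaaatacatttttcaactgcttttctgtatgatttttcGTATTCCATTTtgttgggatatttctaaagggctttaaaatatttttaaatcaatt
Msp300 promoter summit: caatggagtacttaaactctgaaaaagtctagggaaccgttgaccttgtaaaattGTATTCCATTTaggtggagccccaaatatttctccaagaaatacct
The middle of the run lies on the intronic summit, and 10 bp from the promoter summit, which is outside the run. The run was picked from these windows after the sequences had been seen. Apart from them, 1 IDR summit holds GTATTCCATTT on either strand within 50 bases (0.0184% of the others). Of 10890 windows at 600 bp on either side of the IDR summits, 2 hold it (0.0184%). The shared run is thus a description of these windows, with no share that stands above that of the flanks.

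The next set shows the stretches of A and T at the summits of the other muscle genes. Capitals mark unbroken runs of 6 or more A or T. Each window has 50 bases on either side of the summit and is written along the strand of its gene.
sls promoter, chr3L:2115816-2115916, minus strand: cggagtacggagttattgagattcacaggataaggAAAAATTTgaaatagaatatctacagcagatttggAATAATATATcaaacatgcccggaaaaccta
Tm1 promoter, chr3R:15281089-15281189, plus strand: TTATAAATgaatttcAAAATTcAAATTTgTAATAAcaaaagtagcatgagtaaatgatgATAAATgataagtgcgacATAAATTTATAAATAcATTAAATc
Act87E promoter, chr3R:13425578-13425678, plus strand: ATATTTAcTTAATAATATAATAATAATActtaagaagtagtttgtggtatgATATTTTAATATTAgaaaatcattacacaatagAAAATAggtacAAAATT
Act87E, past the 3′ end, chr3R:13428446-13428546, plus strand: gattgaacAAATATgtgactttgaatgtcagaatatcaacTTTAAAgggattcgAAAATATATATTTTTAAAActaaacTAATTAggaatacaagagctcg
Tm2, chr3R:15313752-15313852, plus strand: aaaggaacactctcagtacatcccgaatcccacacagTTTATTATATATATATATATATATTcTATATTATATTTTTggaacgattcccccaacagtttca
Mlc2, past the 3′ end, chr3R:30170770-30170870, minus strand: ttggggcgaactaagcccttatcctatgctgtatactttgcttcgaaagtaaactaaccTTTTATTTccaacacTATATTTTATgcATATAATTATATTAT
The longest run of A and T was 25 bases at Tm2, 20 at the Act87E promoter, 19 past its 3′ end, 15 at Tm1 and at Mlc2, and 10 at sls. A run of 6 or more was found at 8 of 8 IDR summits of the muscle genes and at 97.2% of all IDR summits, against 73.5% of the windows at 600 bp on either side. It was found at 58 of the 81 weaker summits of the muscle genes (71.6%) and at 76.2% of all weaker summits. The minority without one is shown by the strongest weaker summits in coding exons of Mhc (chr2L:16786306-16786406) and of Tm1 (chr3R:15306489-15306589).
Mhc coding exon, plus strand: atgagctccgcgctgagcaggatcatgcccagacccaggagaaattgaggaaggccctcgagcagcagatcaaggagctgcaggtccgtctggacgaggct
Tm1 coding exon, plus strand: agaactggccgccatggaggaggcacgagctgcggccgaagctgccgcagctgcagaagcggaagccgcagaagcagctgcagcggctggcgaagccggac
Their GC contents were 60.4% and 69.3%, and weaker summits of the muscle genes ranged from 22.8% to 69.3%.

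Of the 9 genes, 6 had an IDR summit in the gene or within 2 kb (66.7%), against 35.5% of protein-coding genes. With summits inside the gene only, 3 of 9 had one (Msp300, Tm1 and Tm2), against 12.2% of protein-coding genes. Length bears on such a count, since a long gene has more room for a summit. Among the 5 muscle genes of 20 kb and over, 3 had one, against 61.9% of all such genes. Among the 4 shorter ones, 3 had one, against 33.4% of all shorter genes. Msp300, sls, Tm1 and Act87E had a summit within 500 bp of 1 of their own transcription start sites (TSSs), 4 of 9 genes (44.4%) against 19.3% of protein-coding genes. Each of those 4 summits lay upstream of the TSS, by 232 to 361 bp, and with a window of 250 bp only Tm1 kept one, against 14.6% of protein-coding genes. A gene with more TSSs has more room for a promoter summit, and the shares were not matched for TSS number. Tm1 has 8 TSSs, Msp300 5, Act87E 2 and sls 1. Tm2, with 5, and Mlc2, with 1, had no IDR summit within 500 bp of a TSS. Mhc (5 TSSs), Act57B (1) and bt (3) had no IDR summit.

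In all, 8 IDR peaks were counted for the muscle genes, and 4 of their summits lay inside the gene. Both replicates had a peak over each of the 8. Ranks of the 8 in the IDR list ran from 382 to 4694, with a median rank of 1068. No summit of the 8 lay in a coding exon of the muscle gene it was counted for. Coding exons of neighbouring genes were not looked up. When at least 50% of each peak had to overlap, 5 of 8 were found in both replicates (62.5%), against 77.4% of all IDR peaks, and 3 were found in replicate 2 only. Those 3, both peaks of Act87E and that of Mlc2, differ in width between the IDR list and replicate 1. The IDR peak past the 3′ end of Mlc2, for example, is 134 bp wide and its counterpart in replicate 1 is 396 bp wide. With any overlap of 1 bp, or a replicate summit within 100 bp, 8 of 8 had a counterpart in both replicates.

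**Figure D1:**
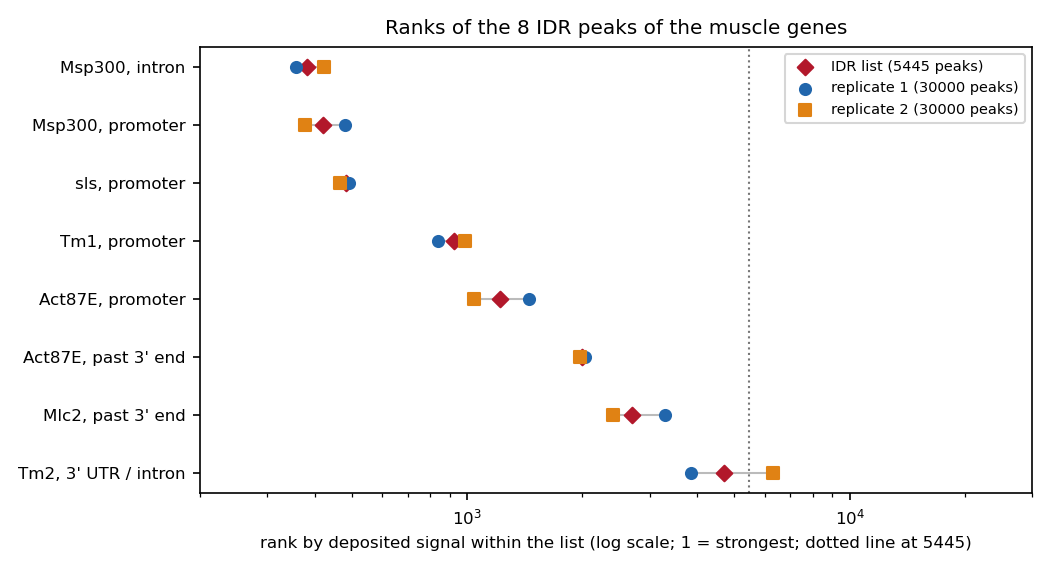
Rank by deposited signal (log scale, 1 is the strongest) of the 8 IDR peaks of the muscle genes in the IDR list (diamonds), replicate 1 (circles) and replicate 2 (squares), with a dotted line at the number of IDR peaks. The sites of Msp300 and sls stand within ranks 356 to 491 in each list, and the Tm2 site is the one that passes the dotted line, at 6311 in replicate 2.

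At Msp300 (FBgn0261836, 2L, 5100877 to 5207002, plus strand, 106126 bp), the annotation has 11 transcripts and 5 TSSs. The stronger peak (5145557 to 5145935) lay in an intron of 2207 bp of 7 transcripts, 632 bp upstream of the TSS of Msp300-RF, an internal start. Its signal was 1042, or 3.57 times the median of the IDR list, at rank 382. Replicates 1 and 2 had signals of 509 and 522 there, at ranks 356 and 423, with the summit on the same base in each. The other peak (5107912 to 5108277) had a signal of 992 at rank 420, and its summit lay 361 bp upstream of the TSS of Msp300-RD and Msp300-RL. That start is internal too, 7635 bp from the 5′ end of the gene, and the summit also lay in an intron of 13980 bp of 4 transcripts. Replicates 1 and 2 gave 439 and 552 there, at ranks 479 and 377. Both sites thus stood among the strongest 7.71% of the IDR list in a gene whose most 5′ TSS, that of 4 transcripts, had a weaker pooled peak only. That one had a signal of 94.4, rank 10020, and its summit 196 bp downstream of the TSS.

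sls (FBgn0086906, 3L, 2039681 to 2115611, minus strand, 75931 bp) encodes Sallimus, the titin-like protein that reaches from the Z-disc into the sarcomere. All 13 of its annotated transcripts share 1 TSS, and the single IDR peak (2115741 to 2116042) had its summit 255 bp upstream of it. The signal was 925 at rank 483, 3.17 times the list median. Replicates 1 and 2 had signals of 432 and 498 at ranks 491 and 465, with summits 2 and 3 bp from that of the IDR peak. The 3′ end of zormin, which encodes another protein of the titin family, lies within 2 kb of the same summit. Along the rest of sls the pooled list had 0 peaks. Replicate 1 had 6 peaks in the window and replicate 2 had 2, the promoter peak included.

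bt (FBgn0005666, chromosome 4, 724400 to 776474, plus strand, 52075 bp) encodes projectin, a titin-family protein of the thick filament. It had 0 IDR peaks and 2 pooled peaks, both in coding exons. The stronger had a signal of 49.6 at rank 27677. The replicates had 6 peaks each. At the most 5′ TSS, replicate 1 had a peak of rank 7335 with its summit at 158 bp, and replicate 2 had one of rank 25609 at 128 bp, and neither reached the pooled list. Of the 80 protein-coding genes on chromosome 4, 15% had an IDR summit in the gene or within 2 kb.

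**Figure D2:**
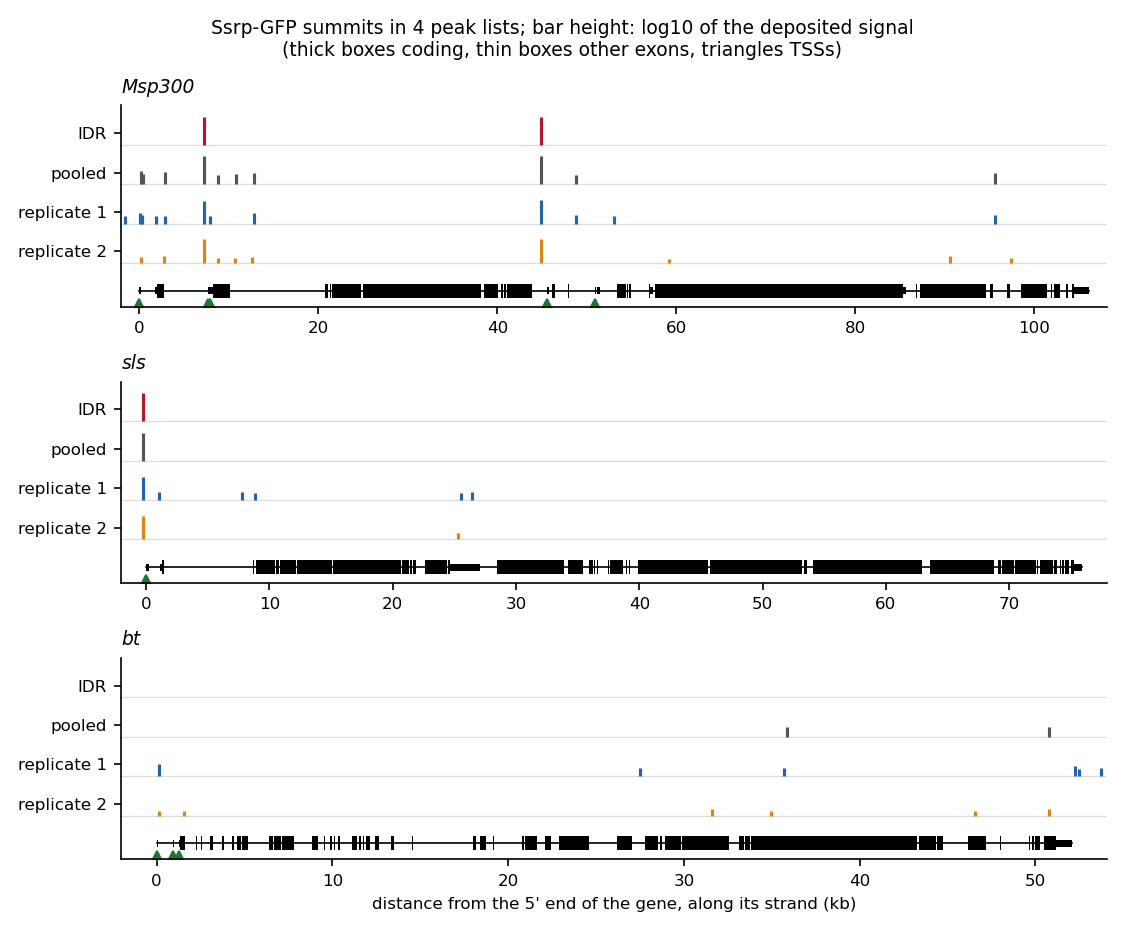
Summits along Msp300, sls and bt in the IDR, pooled, replicate 1 and replicate 2 lists, by distance from the 5′ end of the gene in kb. Bar height is log10 of the deposited signal, boxes are exons and triangles are TSSs. Tall bars stand at 1 site of sls and 2 sites of Msp300 in every list, and bt has none.

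The thin filament genes differed in where their peaks lay. Tm1 and Tm2 encode the tropomyosins, which wind along actin and gate its contact with myosin, and the genes are neighbours on 3R. Tm1 (FBgn0003721, 15278220 to 15308779, plus strand) has 18 transcripts and 8 TSSs. Its IDR peak (15280941 to 15281336) had a signal of 630, rank 921, and a summit 232 bp upstream of the TSS of Tm1-RG. From the TSSs of the 3 and 7 transcripts that start just downstream, the summit was at -393 and -411 bp. Replicates 1 and 2 had signals of 320 and 316 there, at ranks 836 and 988. The strongest peak of replicate 2 there covered 47.2% of the IDR peak, short of the 50% asked for. Support in replicate 2 at 50% came from a second, lower-ranked peak there, with a signal of 74.7 at rank 5891. The other 5 TSSs of Tm1 had weaker pooled summits within 175 bp, at ranks 20247, 6057, 8713 and, for the pair of starts that are 2 bp apart, 8228.

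The strong peak nearest to Tm1 outside the 2 kb window (15275184 to 15275592) had a signal of 2151 and rank 61. It lay 2840 bp upstream of Tm1 and 139 bp upstream of the TSS of Cp190, an insulator protein gene, and was not counted for Tm1.

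Tm2 (FBgn0004117, 15310193 to 15315197, plus strand) had 1 IDR peak (15313604 to 15313999), the weakest of the 8. It had a signal of 181, 0.621 times the list median, at rank 4694. Replicate 1 had it at rank 3851 with a signal of 111, and replicate 2 at rank 6311 with 69.5. The summit lay in the 3′ UTR of 1 transcript and in an intron of 1241 bp of the other 5, 1426 bp downstream of the nearest TSS.

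Act87E (FBgn0000046, 3R, 13425983 to 13428375, plus strand) encodes a muscle actin and was flanked by an IDR peak on each side. The upstream peak (13425516 to 13425798) had a signal of 526 at rank 1215 and a summit 355 bp upstream of the TSS of 2 of the 3 transcripts. Replicates 1 and 2 had signals of 223 and 307 there, at ranks 1450 and 1044. The downstream peak (13428415 to 13428602) had a signal of 366 at rank 1991, with ranks of 2028 and 1970 in replicates 1 and 2. Its summit lay 121 bp past the 3′ end of Act87E, between it and the 3′ end of yrt, and 2049 bp from the nearest TSS of any gene.

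Act57B (FBgn0000044, 2R, 20944021 to 20946431, plus strand), another muscle actin gene, had no IDR peak in its window and 4 peaks in each of the other lists. The strongest pooled one, in its coding exon, had a signal of 125 at rank 7011. Its rank was 5435 in replicate 1, with the summit in the coding exon, and 8993 in replicate 2, with the summit in the intron. Replicate 1 alone thus placed it within as many peaks as the IDR list holds. The IDR summit nearest to its TSS had rank 4597 and lay 4051 bp upstream, outside the window.

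Mhc (FBgn0264695, 2L, 16766566 to 16788766, plus strand), the only muscle myosin heavy chain gene of the fly, had no IDR peak. The IDR summit nearest to its most 5′ TSS was 45691 bp upstream. In the pooled list it had 20 peaks, and the replicates had 20 and 26. The strongest pooled one, at rank 7314, lay past the 3′ end of Mhc, and its nearest TSS was that of Cyt-b5-r. Inside Mhc the strongest pooled one lay in an intron, at rank 7933. The best rank was 4306 in replicate 1, in the 3′ UTR, and 7945 in replicate 2, past the 3′ end.

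Mlc2 (FBgn0002773, 3R, 30171438 to 30174551, minus strand) encodes the regulatory light chain of myosin. The IDR peak counted for it (30170757 to 30170890) had a signal of 293 at rank 2702, and ranks of 3299 and 2403 in replicates 1 and 2. Its summit lay 618 bp past the 3′ end of Mlc2 and 387 bp downstream of the TSS of the next gene, Rsod, inside that gene. At the TSS of Mlc2 itself the pooled list had a peak of rank 9429 with its summit 172 bp downstream. Replicate 1 had a summit on the same base, at rank 7065, while the nearest of replicate 2 lay 763 bp downstream, at rank 20631. Counting a peak only for the gene of its nearest TSS removed Mlc2 from the 6 genes with an IDR summit and left 5, against 20.003% of protein-coding genes.

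Weaker pooled peaks were spread unevenly over the group. Outside the IDR list the 9 genes had 81 distinct pooled summits, with signals of 47.7 to 145. Tm2 had 9.99 per 10 kb of gene with its 2 kb flanks, Tm1 9.55, Mhc 7.63, Mlc2 7.03 and Act57B 6.24. The median over all protein-coding genes was 1.84, with quartiles of 0 and 4.16. Act87E had 3.13, while Msp300 had 0.726, bt 0.357 and sls 0. The density was lower than that of Tm1 in 98.1% of protein-coding genes, and lower than that of Mhc in 94.1%. Among genes of 20 kb and over these shares were 99.5% and 96.8%. The windows of Tm1 and Tm2 overlap, so 2 summits count for both. Of the 9 weaker summits of Tm2, 4 lay inside the gene and the rest in its flanks. Neighbouring summits can stand closer than the commonest peak width of 396 bp, as at 0.485 and 0.684 kb from the 5′ end of Tm2. The counts and densities are thus of summits and not of separate sites.

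Taken alone, the replicates gave close counts at Tm1 and Tm2 and less close ones at Mhc and sls. Tm1 had 36 peaks in replicate 1 and 35 in replicate 2 (35.5 ± 0.707, SD, n = 2), Mhc 20 and 26 (23.0 ± 4.24), Tm2 9 and 9, and Msp300 12 and 10 (11.0 ± 1.41). Per 10 kb, Mhc had 7.63 summits in replicate 1 and 9.92 in replicate 2, which was above 87.9% and 97.9% of protein-coding genes in those lists. A count does not say that the sites match. Of the 33 weaker pooled peaks of Tm1, 22 overlapped a peak of both replicates by at least 50% of each, as did 11 of 20 at Mhc, 4 of 9 at Tm2 and 2 of 8 at Msp300. Over all 9 genes it was 41 of 81 (50.6%), against 42.5% of all weaker pooled peaks.

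**Figure D3:**
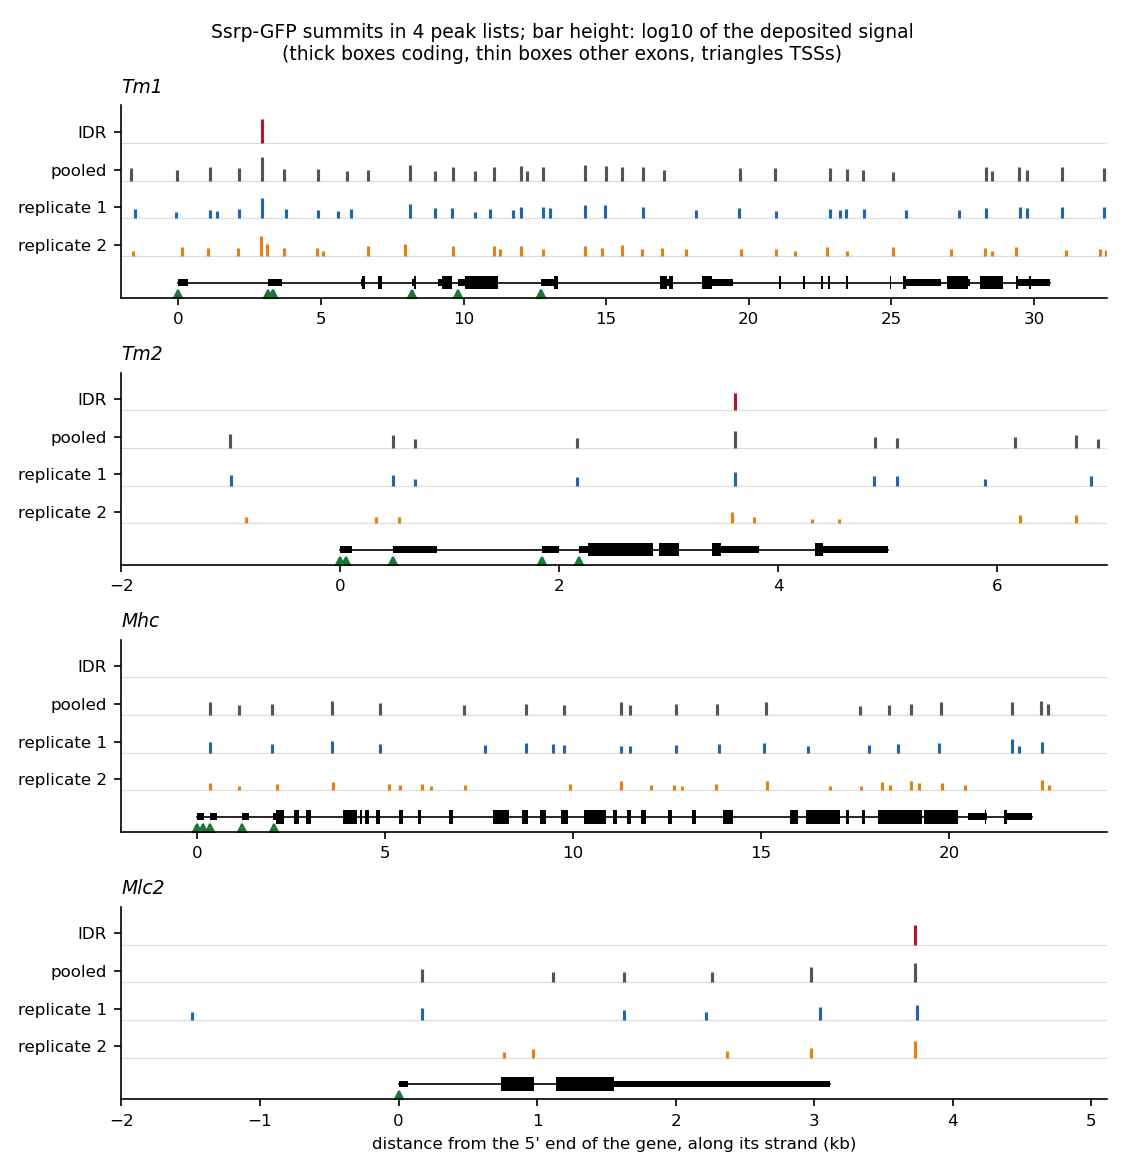
Summits along Tm1, Tm2, Mhc and Mlc2 in the 4 lists, by distance from the 5′ end of the gene in kb, with bar height as log10 of the deposited signal, exons as boxes and TSSs as triangles. Short bars run along the whole of Tm1 and Mhc in the pooled list and in both replicates, and the IDR list has 1 site at Tm1 and 0 at Mhc.

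**Figure D4:**
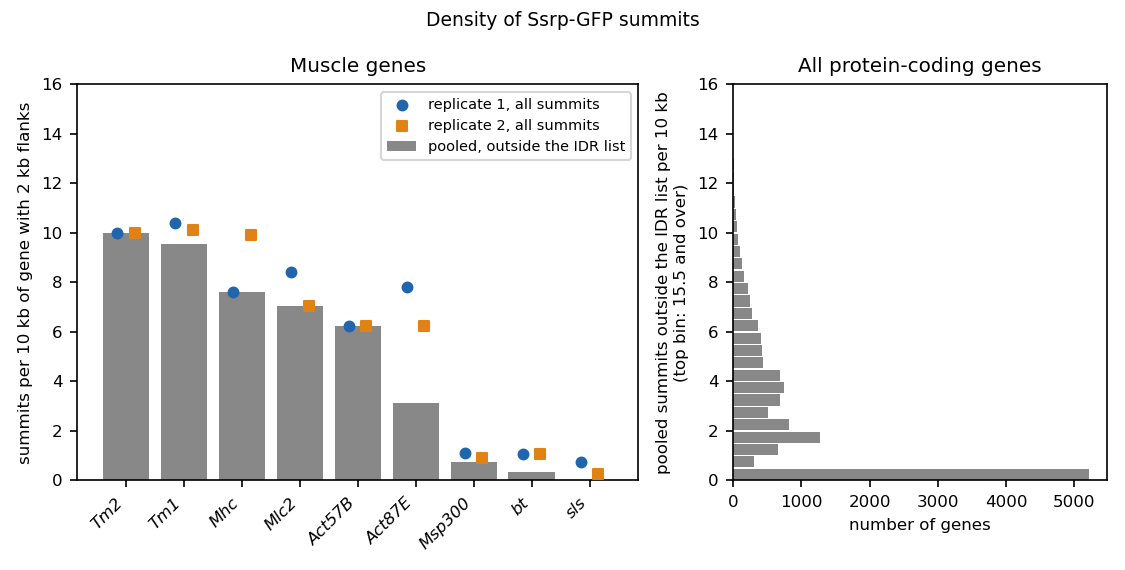
Left, summits per 10 kb of each muscle gene with its 2 kb flanks: bars for pooled peaks outside the IDR list, points for all peaks of each replicate. Right, the bars' quantity over the 13968 protein-coding genes. Tm2, Tm1, Mhc, Mlc2 and Act57B stand between 6.24 and 9.99 on the bars, and Msp300, bt and sls below 0.8.

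Places of the weaker summits differed between the genes. Of 83 pairs of gene and weaker summit, 29 were in introns, 18 in coding exons, 16 within 500 bp of a TSS of the gene, 9 in 3′ UTRs, 3 upstream and 8 downstream. In Mhc 7 of the 18 weaker summits inside the gene lay in coding exons (38.9%), which make up 32.8% of its length. In Tm1 it was 7 of 29 (24.1%) with 16.0% of the length coding. In Msp300, which is 61.9% coding, it was 1 of 8 (12.5%). Tm2 (18.6% coding) had 0 of 4 there and Mlc2 (21.4% coding) 0 of 5. Act57B (46.8% coding) had 1 of 3, Act87E (47.1% coding) 1 of 2 and bt (51.7% coding) 2 of 2, while sls, at 73.0% coding, had 0 weaker summits. Over the 9 genes together 19 of 71 weaker summits inside the genes lay in coding exons (26.8%), which make up 54.7% of their length. Over all protein-coding genes it was 24.2%, with 25.2% of the length coding. Much of the length of the muscle genes is in Msp300, sls and bt, which held 8, 0 and 2 of the 71 summits. In Mhc and Tm1 the share of summits was above the coding share of the length. The 19 include 1 summit of Act87E in a coding exon, which counts as promoter among the pairs.

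GC content was lower at the IDR summits than around them. Within 50 bp of the summit it was 27.4% ± 7.37 (SD over the 8 peaks of the muscle genes), and 39.5% ± 7.19 at 600 bp on either side. It was lower at the summit than in the flanks for 8 of 8 peaks, and for 87.9% of all IDR peaks, with means of 30.0% at the summit and 43.1% in the flanks. The lowest values were 16.8% at the Act87E promoter, 19.8% at Tm1 and 21.8% at the Msp300 intron, and the highest was 37.6% at the Msp300 promoter. Weaker pooled summits of the same genes had 42.1% ± 12.0 (n = 81) and 43.2% in their flanks, and were below the flanks in 41 of 81 cases. Peaks are not independent replicates, and base composition can itself affect recovery in sequencing, which was not tested.

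**Figure D5:**
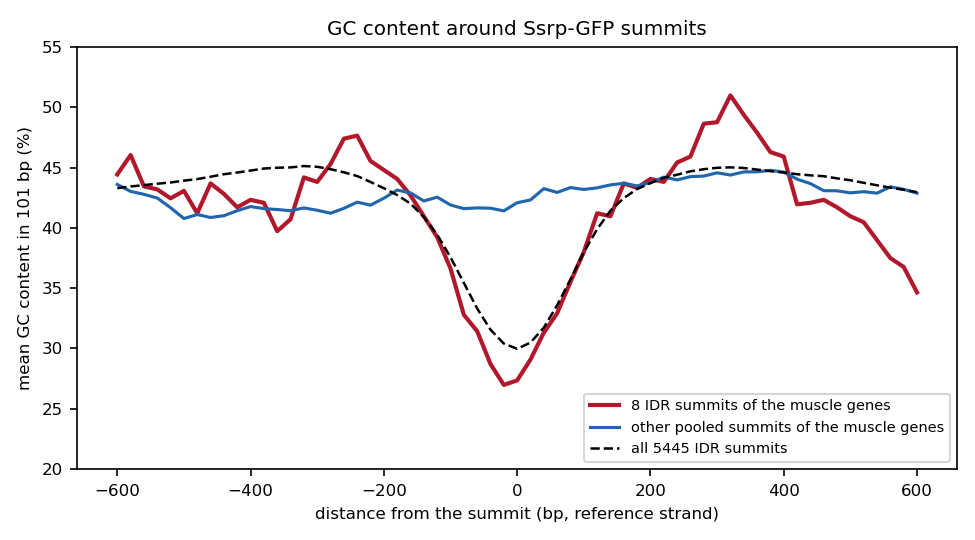
Mean GC content (%) of the base and 50 bases on either side, by distance from the summit in bp, for the 8 IDR summits of the muscle genes, their other pooled summits and all IDR summits. The IDR curves dip at the summit, to 27.4% for the muscle genes and 30.0% for all, and the other pooled summits, at 42.1%, show no such dip.

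Known sequence elements were sought on both strands within 150 bp of each summit, and their shares are a description only. GAGAG, the core of GAGA factor sites, was found at 4 of 8 summits, against 30.0% of all IDR summits and 30.7% of windows of the same length at 1 TSS per protein-coding gene. AAAAAAA, a run of A on either strand, was found at 4 of 8, against 37.0% and 25.2%. The consensus of MEF2, the main activator of muscle genes, was found at 3 of 8, both Msp300 sites and the Act87E promoter, against 19.96% of all IDR summits and 11.0% of the TSS windows. Its letters can overlap a TATA box. Most of them are A or T, which are common at IDR summits, and the windows were not matched for base composition. Whether base composition sets these shares was not tested. TATAAA was at 2 of 8, against 51.3% and 40.0%, and CANNTG, the E box of bHLH factors, at 6 of 8, against 73.6% and 77.7%. The replication-related element TATCGATA was at 0 of 8, against 3.75% and 8.53%, and CAGGTAG, bound by Zelda, at 0 of 8, against 1.18% and 1.70%.

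For the rest of the sarcomere, 30 further genes of thin filaments, thick filaments and the Z-disc were looked up. Of these, 12 had an IDR summit in the gene or within 2 kb, beside the 35.5% of all protein-coding genes, and 3 had one within 500 bp of a TSS, beside 19.3%. Of 14 thin filament genes 5 had one, with tmod, which caps thin filaments, the strongest at a signal of 791 and rank 644, 1446 bp downstream of a TSS of its own. TpnC47D, a troponin C gene, followed with 317, then Lasp with 280, cpa, a capping protein subunit, with 237, and sals with 226. For cpa and sals the nearest TSS was that of a neighbour, shg and Exd2, and for the Lasp summit that of a noncoding gene. Of 9 Z-disc genes 5 had one: Actn (alpha-actinin) with 307, nearest to the TSS of usp, Zasp66 with 258, Zasp52 with 240, cher with 234, and tn at rank 4211. Of 7 thick filament genes 2 had one, unc-45, a myosin chaperone, with 175 and Obsc with 166, both nearest to the TSS of another gene. None of these signals reached those of the Msp300 and sls peaks, but that of tmod was above Tm1, at 630, and above the peaks of Act87E, Mlc2 and Tm2. TpnC47D and Actn were also above Mlc2, at 293. All of the 12 but unc-45 and Obsc were above Tm2, at 181.

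The median density of weaker peaks was 6.24 per 10 kb over the 9 muscle genes and 2.72 per 10 kb over these 30, and it varied widely among the 30. Mlp84B, a LIM protein of the Z-disc, had 10.1 per 10 kb, Mlc1, the other myosin light chain, 8.45, and wupA and up, which encode troponin I and troponin T, had 7.82 and 7.63. Act88F, the actin of the indirect flight muscle, had 1.61. The flight muscle genes fln and TpnC4 had 0, as did Act79B, TpnC41C, Zasp67, Obsc, tn and CG1674.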

How the data were processed

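ChIP-seq peaks of Ssrp-GFP were analysed in 2 biological replicates. The authors deposited 4 peak lists on dm6, per the text deposited with the samples. Each replicate list was made from the alignment of that replicate and 1 further alignment shared by all lists, so the lists are not fully independent. No label or deposited text names the aligner, the peak caller or the IDR threshold. The deposited signal is set by the authors' peak caller and has no stated normalization. The deposited −log10 of the q-value is capped: 3564 pooled peaks share its highest value, 3.85. Read depth is unknown. Chromosome lengths of the reference (release 6) exceeded the highest peak end on each chromosome with peaks. Ensembl release 115 gave the genes, with transposable elements left out. Summits of 4 IDR peaks lay past their peak and were set to its last base.

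Python 3.11.15, pandas 2.3.3 and numpy 2.4.6 were used. Summits were assigned to genes within 2 kb and to promoters within 500 bp of a TSS. A place in a gene was given in the order promoter, coding exon, UTR, intron. Replicate support required an overlap of 50% of both peaks. The values printed for a replicate come from its strongest peak that overlaps the IDR peak by at least 1 bp. GC content was taken over the summit and 50 bp on either side. The search of summits near genes was tested on simulated data. With 1 group, no p-value was computed. Sequences come from the RefSeq genome. The text names the 9 genes with all their IDR peaks, and of 30 other sarcomere genes those with an IDR summit. All 30 symbols matched, 1 of them (Unc-89, now Obsc) as a synonym. The weaker-peak densities of other sarcomere genes, and the shared Msp300 run, were chosen after their values were seen. The genes and lists were chosen with earlier results of these data known.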

Additional observations from a re-analysis of the deposited data

How the results depend on the processing

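With summits in the gene body only, 3 of the 9 muscle genes (Msp300, Tm1 and Tm2) and 7 of the 30 other sarcomere genes had an IDR summit (12.2% of protein-coding genes), the muscle genes had 4 such summits, and their median rank was 670.5. Promoters of 250 bp left 1 muscle gene and 1 other gene (14.6% of protein-coding genes), and promoters of 1000 bp gave 6 other genes (22.6%). The 2722 strongest IDR peaks left 3 other genes with a summit (22.9% of protein-coding genes) and 1 with a promoter summit (11.8%). The 10890 strongest pooled peaks gave 35 summits at the muscle genes, with promoter summits at 7 muscle genes and 6 other genes, against 29.1% of protein-coding genes. With the nearest TSS only, 7 other genes had a summit (20.003%). Replicate support held for 8 of 8 peaks with any overlap or with summits within 100 bp, and for 3 when each replicate list was first cut to the length of the IDR list. A single replicate list of that length gave 8 summits in replicate 2 and 13 in replicate 1, where Mhc and Act57B also had one (35.6% of protein-coding genes). Tm2 had none in replicate 2 (35.3%). No alternative moved the mean GC content by as much as its SD, and it ranged from 27.0% to 32.5%. No paired analysis was possible because both samples belong to 1 group. Depth is unknown, so nothing is said of sites below the lists' ends.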
